A study of Homo sapiens with 12 samples.

Results

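The 41 genes described here encode factors of the complement and the blood clotting systems, and comprise 18 complement genes and 23 clotting genes among the 57500 genes counted. They were chosen by name, as a list of symbols matched to the Ensembl identifiers of the count files, with earlier results of these data known, and the rule itself uses no measured value. The libraries came from HepG2, a human hepatocellular carcinoma cell line, in a study of cyanide made by the cells themselves, in which thiosulfate sulfurtransferase (TST, rhodanese) is the enzyme that removes cyanide. All groups were HepG2 cells kept for 24 h in medium with 400 µM glycine, and each comprised 4 libraries of total RNA. WT was the wild-type control. shTST carried a TST shRNA plasmid delivered by lentivirus, and overTST carried a codon-optimized TST coding sequence behind the CMV promoter, also delivered by lentivirus and selected with blasticidin. The sources used here name no empty-vector or scrambled-shRNA control, so that the WT cells differ from both lines by the transduction as well as by TST, and do not say whether the lines were pools or single clones.

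The complement system is a set of plasma proteases that cleave one another in sequence after recognition of a surface, and converge on the cleavage of C3 and then of C5, which starts assembly of a pore from the terminal components. The clotting system is a second chain of proteases that ends with prothrombin, whose active form cuts fibrinogen into fibrin, and it is held in check by serpins, by the protein C system and by plasmin. Hepatocytes secrete most proteins of both systems into the plasma, and HepG2 is widely used as a source of them.

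Library totals were 22911380 to 45120508 counts, and were lower in overTST (22911380 to 27414142) than in WT (28866175 to 45120508), with 27527854 to 33865386 in shTST. TST itself had 47.2, 47.5, 52.8 and 48.5 CPM (counts per 1000000 of the TMM-scaled library size) in WT, and 33.0, 33.6, 36.6 and 33.5 CPM in shTST. The TST level fell in shTST, by 0.52 on the log2 scale (standard error 0.055, edgeR adjusted p = 3.2e-06). In overTST the reference TST gene had 51.8, 56.0, 61.6 and 62.1 CPM. The inserted TST sequence was codon optimized and was not looked for here, so this value does not check the overTST label. All 10 hepatocyte markers examined were expressed, with ALB at 5738 ± 555 CPM (SD, n = 4) and HNF4A at 392 ± 6.62 CPM (SD, n = 4) in WT. The summed CPM of 4 endothelial markers was 1.81 to 3.91 over all libraries and that of 4 platelet markers 0.227 to 0.597, with PTPRC, KDR, PPBP and PF4 at or near 0. Of 6 leukocyte genes, LYZ stood at 1644 CPM in WT while the defining marker PTPRC was at 0 there. The 5 stellate cell and fibroblast genes summed to 71.8 to 83.6 CPM, mostly from ACTA2 and PDGFRB. LYZ was called lower in shTST, PDGFRB lower in both lines, and ACTA2 and PECAM1 higher in overTST. CDH5 was called lower in overTST, at 14 to 33 counts in WT and 1 to 7 in overTST. It passed the filter on low counts through the WT libraries, where it was high, so that no weight is put on its call. The part of these genes in the results below was not tested. Mitochondrial genes took 6.91 to 12% of counts in WT, 6.84 to 8.65% in shTST and 10.8 to 11.7% in overTST, so that the 2 lines did not overlap, and the part of this share in their comparison was not tested. WT replicates 2 and 4 stood apart, with a chi-square per gene of 17.7 to 38.3 in every pair that held either of them, against 6.19 between WT replicates 1 and 3 and at most 10.1 within the other groups.

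Levels of the members were compared with each other as RPKM, the CPM divided by the exonic length in kilobases. Among complement genes C3, the protein on which all routes of activation converge, was highest in WT at 262 to 287 RPKM. CFI, the protease that destroys active C3b and C4b, followed at 26.2 ± 1.64 RPKM (SD, n = 4), and CD59, a membrane-bound inhibitor of the pore, at 21.5 ± 0.900 RPKM (SD, n = 4). The order below them was C5, C4A, C4B, CD46, MASP2, C8A, C8G, CFB, SERPING1, C1S, CD55, MASP1 and C1R. Over the 4 WT libraries the RPKM ranges of these neighbours overlapped between C4B and CD46, MASP2 and C8A, C8A and C8G, SERPING1 and C1S, and C1S and CD55, and not between any other pair in that order. C6, a pore component, had 2 to 11 counts a library, and C9, which forms the wall of the pore, had 0 counts in all 12 libraries, which allows at most 3 counts a library for counting error alone.

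Clotting genes reached similar heights, with A2M at 179 to 213 RPKM, SERPINF2 at 178 ± 13.3 RPKM (SD, n = 4), FGA at 176 ± 13.1 RPKM (SD, n = 4) and F2 at 169.5 ± 4.82 RPKM (SD, n = 4) in WT. A2M encodes a broad protease trap, SERPINF2 the main inhibitor of plasmin, FGA the alpha chain of fibrinogen and F2 prothrombin. The ranges of these 4 genes overlapped from one to the next. FGG, SERPINA5, SERPIND1, SERPINC1, FGB and PROC came next, between 132 and 39.1 RPKM, and the lowest tested genes were F13B, KLKB1 and PLG, at 0.382 RPKM or less. F9, the hemophilia B factor, had 1 count in each of 2 shTST libraries and 0 in the other 10 libraries. Summed over the 18 genes, complement mRNA was 2762 to 3019 CPM in WT, 2995 to 3387 in shTST and 2273 to 2596 in overTST. The overTST sums lay below all others, and shTST and WT overlapped. The 23 clotting genes summed to 4572 to 5027 CPM in WT, 4899.7 to 5569 in shTST and 4102 to 4935 in overTST, and each of these ranges overlapped the WT range. In bulk RNA, fewer cells expressing a gene and less of its RNA per cell cannot be told apart, here or in any value below.

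**Figure D1:**
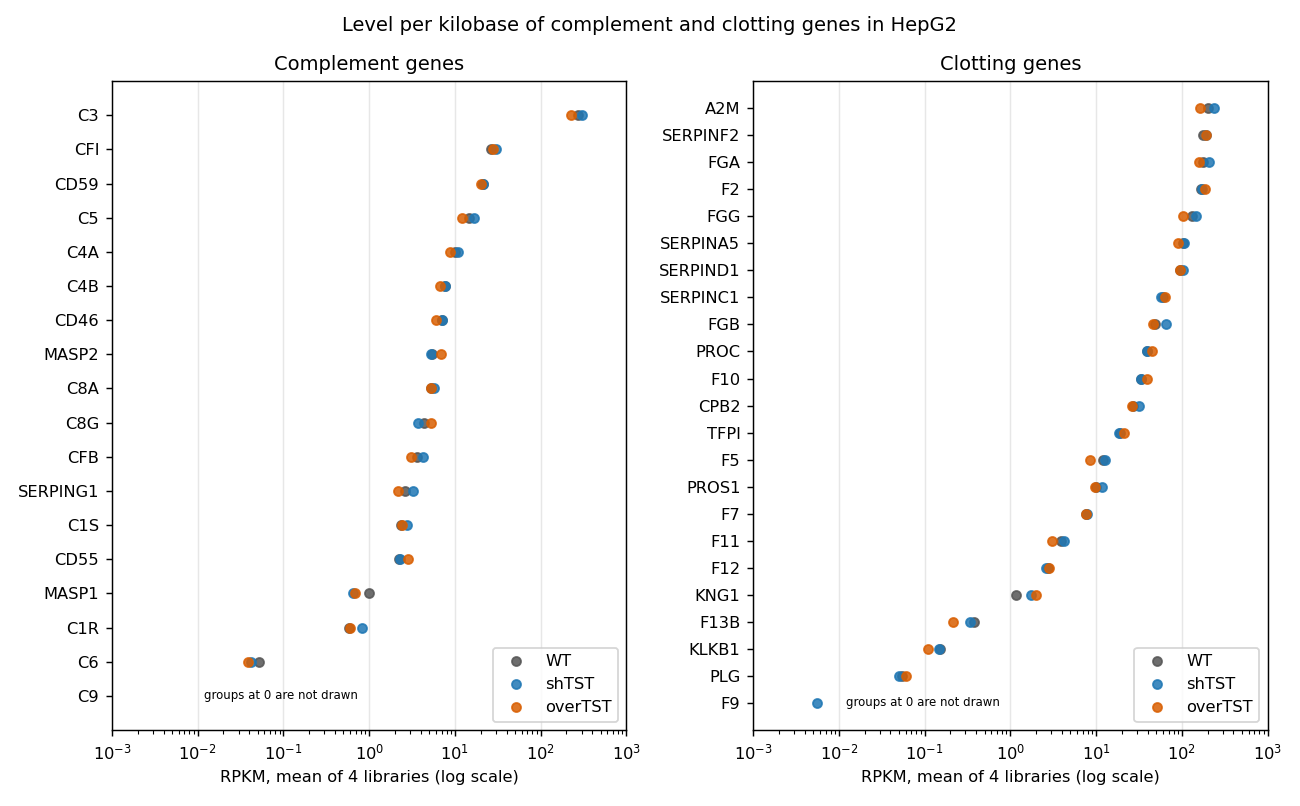
Mean RPKM of each complement gene (left) and clotting gene (right) on a log axis, with 1 point per group (WT grey, shTST blue, overTST orange; n = 4 libraries each). C3 stands far above the other complement genes, A2M, SERPINF2, FGA and F2 lead the clotting genes, and C6, C9, F9, PLG and KLKB1 lie at the lower end.

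Several complement and clotting genes had more mRNA in shTST than in WT, and a partly overlapping set had less in overTST. Each line was compared with WT by edgeR's quasi-likelihood test on counts, and a gene was called at a Benjamini-Hochberg adjusted p of 0.05 or less over all genes tested. In shTST, 6 complement genes (C1R, SERPING1, C1S, C5, CFB and CFI) were called higher and 1 (MASP1) lower of 16 tested. Among all 14584 genes tested there, 6.69% were called higher and 9.40% lower. Of 22 clotting genes tested, 6 (KNG1, FGB, CPB2, A2M, PROS1 and FGA) were called higher and none lower in shTST. No clotting gene was lower at an unadjusted p below 0.05 in edgeR either, and DESeq2 and limma-voom each called 0 lower. In overTST, 3 complement genes (MASP2, CD55 and C8G) were called higher and 8 (MASP1, C3, SERPING1, CFB, C5, CD46, C4A and C4B) lower of 16, against 15.7% called higher and 18.2% lower among all 14421 genes tested there. Of 21 clotting genes tested in overTST, 4 (KNG1, F10, PROC and TFPI) were called higher and 7 (F13B, F5, FGG, F11, A2M, SERPINA5 and FGA) lower. No weight is put on the call of F13B, for a reason given below. Without WT replicates 2 and 4, a setting chosen after seeing the data that leaves 2 WT libraries, none of the 6 complement genes stayed called higher in shTST (edgeR adjusted p = 0.0505 to 0.473), MASP1 stayed lower, and 3 clotting genes (FGA, FGB and KNG1) were called higher. In overTST that setting called 2 complement genes higher and 6 lower, with CFB, SERPING1 and C8G lost, and 1 clotting gene (KNG1) higher and 5 lower, with F10, PROC, TFPI, FGA and F13B lost. Members had a higher median level than all tested genes, 58.1 against 16.4 CPM in WT, and among the 8669 genes with a mean of 10 CPM or more 8.84% were called higher and 13.8% lower in shTST, and 21.2% higher and 25.0% lower in overTST. At that level 4 of 13 complement genes were higher and 1 lower in shTST, and 2 higher and 7 lower in overTST. Of 17 clotting genes at that level, 5 were higher and 0 lower in shTST, and 3 higher and 6 lower in overTST.

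The median log2 fold change in shTST was 0.11 over the complement genes tested and 0.037 over the clotting genes tested, beside 0.0040 over all genes. In overTST it was −0.14 and −0.0079, beside 0.0019 over all genes. Groups that did not overlap gave a similar picture. In shTST, all 4 libraries lay above all WT libraries for 4 complement and 6 clotting genes and below them for 1 complement gene, with 8.37% of all tested genes above and 10.8% below. In overTST, all 4 libraries lay above WT for 3 complement genes and 1 clotting gene and below it for 8 and 4, with 14.2% and 16.2% of all tested genes. Both comparisons used the same WT libraries. The direct comparison of shTST with overTST, which leaves WT out of the contrast, called 8 of 16 complement genes higher in shTST and 3 lower, and 9 of 22 clotting genes higher and 3 lower. Among all 14883 genes tested in it, 16.9% were higher and 16.1% lower. Among genes with a mean of 10 CPM or more, 23.2% were higher and 23.3% lower in it. At that level 6 of 13 complement genes were higher and 2 lower, and 9 of 17 clotting genes higher and 3 lower.

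Exonic length moved with the overTST comparison. Over all tested genes, Spearman's rho of the log2 fold change and exonic length was −0.404 in overTST, −0.09 in shTST and 0.357 in the direct comparison, as a description across genes. The median change in overTST was 0.21 for genes of up to 1 kb and −0.16 for genes over 8 kb. After a correction for this trend, 5 complement genes stayed lower in overTST, and the calls of C4A, C4B, CD46, C8G, A2M, F10 and PROC were lost (adjusted p between 0.0678 and 0.422). The overTST change of C3 became −0.19 (adjusted p = 0.0198), that of MASP1 −0.36 (0.0129) and that of TFPI 0.35 (5.4e-05). Between shTST and overTST the calls of C4B (0.0850), CD46 (0.135), F10 (0.204) and PROC (0.0784) were lost. FGB and CPB2 were then called lower in overTST. What produced the length trend was not tested.

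**Figure D2:**
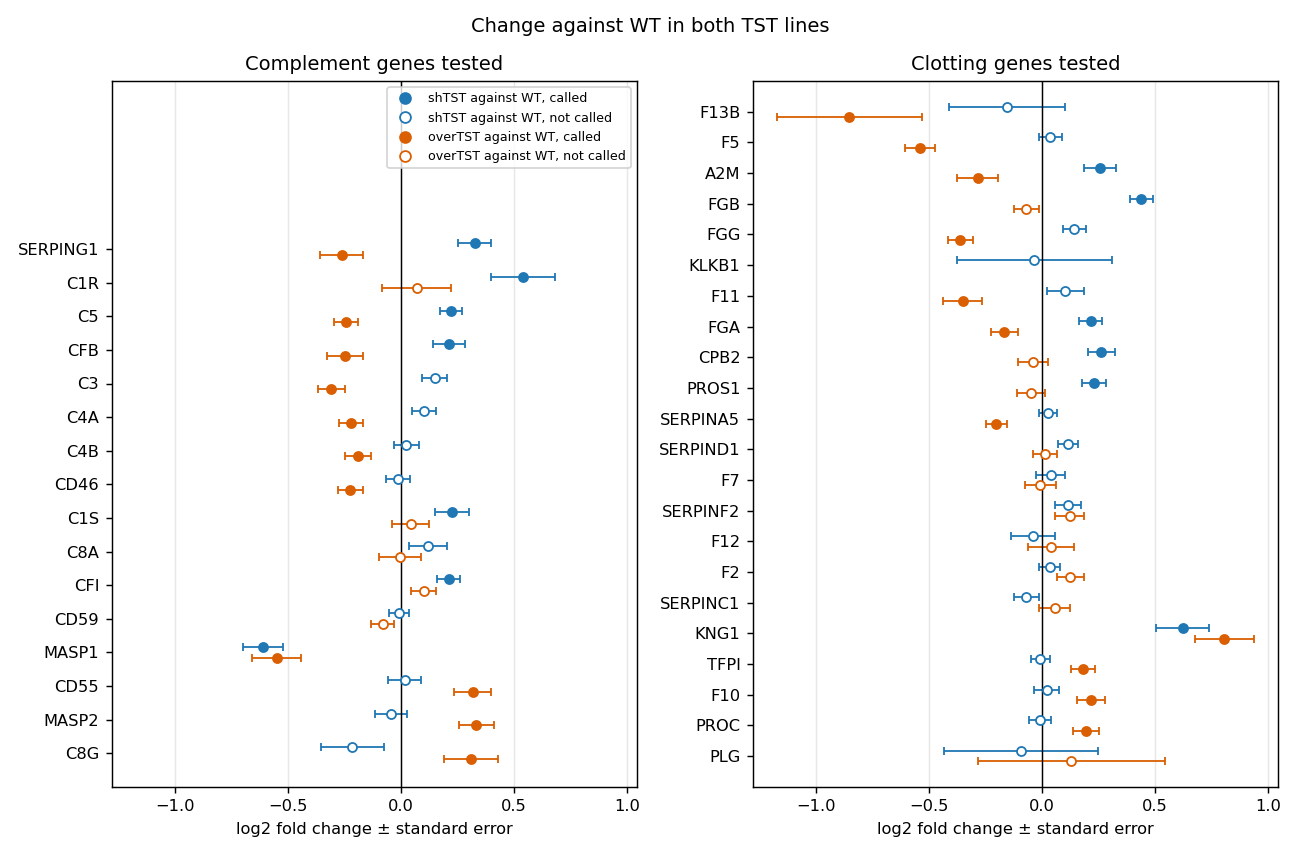
Log2 fold change against WT with its standard error for each tested complement gene (left) and clotting gene (right), shTST in blue and overTST in orange, filled where called at an adjusted p of 0.05 and open otherwise. SERPING1, C5, CFB, A2M and FGA have filled points on opposite sides of 0, MASP1 is lower and KNG1 higher in both lines, and KLKB1 was not tested in overTST.

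The recognition proteases start the classical and lectin routes. C1R and C1S form the protease pair of the C1 complex, and MASP1 and MASP2 are their counterparts on mannose-binding lectin. The 4 WT libraries held 3.26, 2.88, 3.87 and 3.13 CPM of C1R, the shTST libraries 4.04, 4.32, 4.43 and 6.14 and the overTST libraries 2.84, 4.28, 3.67 and 2.91. The shTST libraries all lay above WT, and overTST spanned the WT range. C1R rose in shTST, with a log2 fold change of 0.54 (standard error 0.14, adjusted p = 0.0114), and this call was lost without shTST replicate 4 (adjusted p = 0.0640). For C1S, WT gave 17.3, 14.2, 15.7 and 14.0 CPM, shTST 19.2, 17.3, 17.3 and 17.6 and overTST 15.6, 16.4, 14.8 and 16.2. The shTST and WT ranges met at their edges. C1S rose, with a log2 fold change of 0.23 (standard error 0.075, adjusted p = 0.0429), and 7 of the 8 fits that left out 1 library lost that call (adjusted p up to 0.130), as did testing without a filter on low counts (0.0601). In WT, MASP1 stood at 11.3, 15.2, 12.7 and 13 CPM, in shTST at 8.12, 8.74, 8.58 and 8.89 and in overTST at 7.61, 7.88, 10.9 and 9.55. Both lines lay below every WT library. MASP1 fell in shTST, with a log2 fold change of −0.61 (standard error 0.089, adjusted p = 9.8e-05), and in overTST, with a log2 fold change of −0.55 (standard error 0.11, adjusted p = 4.1e-04), and the direct comparison gave a log2 fold change of −0.062 (standard error 0.11, adjusted p = 0.710). MASP2 had 22.8, 20.4, 26.0 and 23.4 CPM in WT, 23.1, 21.3, 23.7 and 21.4 in shTST and 26.5, 27.7, 30.4 and 31.9 in overTST. Here overTST alone stood above WT. MASP2 rose in overTST, with a log2 fold change of 0.33 (standard error 0.077, adjusted p = 0.00169), and lay lower in shTST than in overTST, with a log2 fold change of −0.38 (standard error 0.074, adjusted p = 3.7e-04). In the count files the exons of C1R overlap those of C1RL over 11.85% of their length, so C1R counts carry that uncertainty.

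C3, C4 and factor B form the convertases that cut C3 and C5. C3 lies on chromosome 19, from 6677704 to 6730562 on the minus strand (GRCh38). The 4 WT libraries held 2377, 2254, 2391 and 2184 CPM of C3, the shTST libraries 2481, 2383, 2736 and 2600.5 and the overTST libraries 1719, 1779.6, 1911 and 2023. No overTST library reached the lowest WT library, and shTST overlapped WT. C3 fell in overTST, with a log2 fold change of −0.31 (standard error 0.059, adjusted p = 2.6e-04). In shTST its change, a log2 fold change of 0.15 (standard error 0.054, adjusted p = 0.0642), was not called, while DESeq2 (adjusted p = 0.0140), limma-voom (0.0180), upper-quartile scaling (0.0447), testing without a filter (0.0366), the length correction (0.0370) and the fits without WT replicate 3 (0.0498) or shTST replicate 2 (0.0321) called it higher. The direct comparison gave a log2 fold change of 0.46 (standard error 0.056, adjusted p = 2.1e-06). C4A and C4B are near-identical copies whose reads may be split between them, so their sum is given. The sum was 127 ± 6.08 CPM (SD, n = 4) in WT, 133 ± 8.99 CPM (SD, n = 4) in shTST and 110.2 ± 3.30 CPM (SD, n = 4) in overTST, and it fell in overTST, with a log2 fold change of −0.21 (standard error 0.050, adjusted p = 0.00218). In shTST it was not called (log2 fold change 0.069, standard error 0.050, adjusted p = 0.380). The ratio of C4B to C4A was 0.700 to 0.766 in WT, and its groups overlapped WT in both lines (exact permutation test, two-sided, p = 0.0857 in shTST and 0.543 in overTST). The exons of C4A overlap those of STK19 and the antisense C4A-AS1 over 11.44% of their length, and those of C4B the antisense C4B-AS1 over 7.31%. For CFB, WT gave 18.7, 17.8, 18.2 and 18.3 CPM, shTST 22.7, 18.3, 21.5 and 22.0 and overTST 15, 13.3, 16.1 and 17. The overTST libraries all lay below WT, and 1 of the 4 shTST libraries lay within the WT range. Factor B, the convertase part of the alternative route, rose in shTST, with a log2 fold change of 0.21 (standard error 0.069, adjusted p = 0.0390), fell in overTST, with a log2 fold change of −0.25 (standard error 0.079, adjusted p = 0.0167), and differed between the lines by a log2 fold change of 0.46 (standard error 0.078, adjusted p = 8.5e-05). The shTST call was lost in 7 of 8 fits that left out 1 library (adjusted p up to 0.121), without a filter (0.0646) and in 1 fit of all 12 libraries (0.0562), and the overTST call without overTST replicate 2 (adjusted p = 0.0781). Of the exonic length of CFB, 45.47% is shared with other genes in the files, almost all with 1 gene that has no symbol here, so its level is uncertain.

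**Figure D3:**
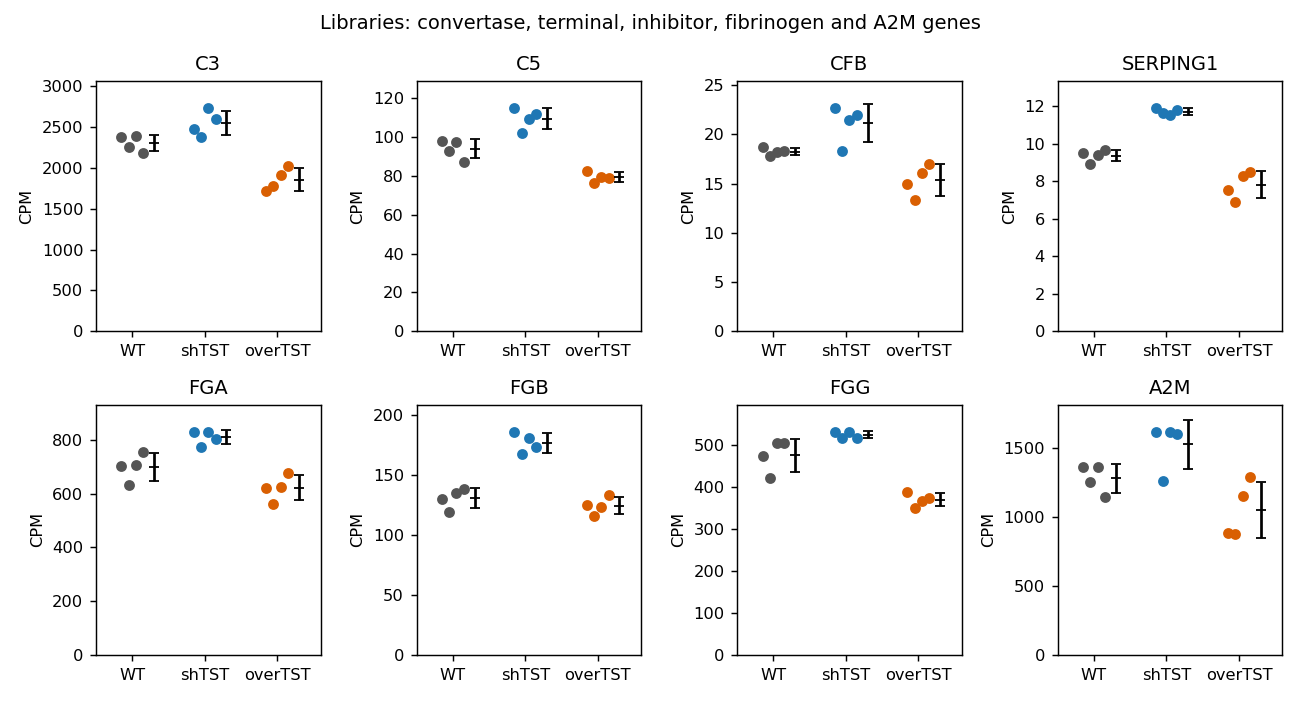
CPM in every library for 8 genes, with the mean and SD of the 4 libraries of each group beside the points and axes from 0. C5, SERPING1, FGA, FGB and FGG have all shTST libraries above WT, C3, C5, CFB, SERPING1 and FGG have all overTST libraries below WT, and 1 shTST library of A2M lies apart from the other 3.

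Among terminal components, C5 gives the inflammatory peptide C5a and starts the pore. In WT, C5 stood at 97.9, 92.8, 97.5 and 87.3 CPM, in shTST at 115, 102, 109 and 112 and in overTST at 82.3, 76.1, 79.4 and 79.0. The 3 groups did not overlap. C5 rose in shTST, with a log2 fold change of 0.22 (standard error 0.049, adjusted p = 0.00365), fell in overTST, with a log2 fold change of −0.24 (standard error 0.052, adjusted p = 8.1e-04), and differed between the lines by a log2 fold change of 0.47 (standard error 0.050, adjusted p = 3.2e-07). Of the fits tried, the one without WT replicates 2 and 4 lost the shTST call (adjusted p = 0.0751), and the others kept all of these calls. C8A, the alpha chain of C8, had mean levels of 12.4 ± 1.20 CPM (SD, n = 4), 13.5 ± 1.11 CPM (SD, n = 4) and 12.3 ± 1.21 CPM (SD, n = 4) in WT, shTST and overTST, and was called in no comparison. C8G had 3.91, 4.15, 5.09 and 4.51 CPM in WT, 3.61, 3.12, 3.45 and 4.98 in shTST and 5.15, 6.06, 5.33 and 5.27 in overTST. The overTST libraries lay just above all WT libraries. C8G, the lipocalin-like gamma chain, rose in overTST, with a log2 fold change of 0.31 (standard error 0.12, adjusted p = 0.0484), a call that the fits without WT replicates 1, 2 and 4 and without overTST replicates 2, 3 and 4 lost (adjusted p up to 0.147), as did DESeq2 (0.0558), testing without a filter (0.119) and 1 fit of all 12 libraries (0.0703).

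The soluble inhibitors are CFI and SERPING1, the C1 inhibitor, which shuts off C1r, C1s, the MASPs, factor XIIa and kallikrein. The 4 WT libraries held 9.47, 8.92, 9.41 and 9.63 CPM of SERPING1, the shTST libraries 11.9, 11.6, 11.5 and 11.8 and the overTST libraries 7.54, 6.90, 8.29 and 8.46. The 3 groups of SERPING1 did not overlap. It rose in shTST, with a log2 fold change of 0.33 (standard error 0.075, adjusted p = 0.00506), fell in overTST, with a log2 fold change of −0.26 (standard error 0.095, adjusted p = 0.0350), and the direct difference was a log2 fold change of 0.59 (standard error 0.084, adjusted p = 1.4e-05). The overTST call was lost under upper-quartile normalization (adjusted p = 0.0591) and without WT replicates 1, 3 and 4 or overTST replicates 1 and 2 (adjusted p up to 0.119). For CFI, WT gave 107, 94.6, 107 and 97.9 CPM, shTST 124, 109, 119 and 117 and overTST 105, 106, 109 and 115. All shTST libraries of CFI stood above WT. CFI rose in shTST, with a log2 fold change of 0.21 (standard error 0.050, adjusted p = 0.00639), and in overTST it was a log2 fold change of 0.099 (standard error 0.054, adjusted p = 0.160). The 3 membrane regulators protect the cell's own surface. CD46, a cofactor for CFI, fell in overTST, with a log2 fold change of −0.22 (standard error 0.056, adjusted p = 0.00302). In WT, CD55 stood at 12.8, 13.2, 12 and 12.1 CPM, in shTST at 12.6, 12, 13.4 and 12.7 and in overTST at 14.1, 15, 16.5 and 17. CD55, which speeds the decay of convertases, had all overTST libraries above WT and rose there, with a log2 fold change of 0.32 (standard error 0.082, adjusted p = 0.00384). CD59 was called in no comparison, with means of 106 ± 4.45 CPM (SD, n = 4), 106 ± 3.71 CPM (SD, n = 4) and 100.5 ± 5.31 CPM (SD, n = 4) in WT, shTST and overTST. In CD55, 8.69% of exonic length is shared with a gene that has no symbol here and had 0 counts.

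Fibrinogen is built from 3 chains whose genes lie side by side on chromosome 4. In the GRCh38 coordinates of the count files, FGB spans 154562956 to 154571086 on the plus strand, FGA 154583126 to 154590766 and FGG 154604134 to 154612967, both on the minus strand. FGA had 701, 630.3, 706 and 756 CPM in WT, 829.8, 774, 831 and 804 in shTST and 622, 563, 625 and 677 in overTST. All shTST libraries lay above WT, and overTST overlapped WT in part. FGA rose in shTST, with a log2 fold change of 0.21 (standard error 0.052, adjusted p = 0.00656), and fell in overTST, with a log2 fold change of −0.17 (standard error 0.060, adjusted p = 0.0341). The overTST call was lost under upper-quartile normalization (adjusted p = 0.0818), and without WT replicates 1, 3 and 4 and overTST replicates 2 and 3 (adjusted p up to 0.155). The 4 WT libraries held 129.8, 119, 135 and 138 CPM of FGB, the shTST libraries 186, 167, 180.5 and 173 and the overTST libraries 125, 116, 123 and 133. Every shTST library of FGB stood well above the other 8. FGB, the beta chain, rose in shTST, with a log2 fold change of 0.44 (standard error 0.049, adjusted p = 6.0e-06), and in overTST had a log2 fold change of −0.071 (standard error 0.055, adjusted p = 0.344). For FGG, WT gave 474, 421, 505 and 505 CPM, shTST 531, 518, 533 and 518 and overTST 389, 350.3, 367 and 375. The overTST libraries were all below WT, and the shTST libraries were all above it. FGG, the gamma chain, fell in overTST, with a log2 fold change of −0.36 (standard error 0.057, adjusted p = 3.2e-05). In shTST it had a log2 fold change of 0.14 (standard error 0.052, adjusted p = 0.0633), while DESeq2 (adjusted p = 0.0362), limma-voom (0.0357), upper-quartile scaling (0.0424), the length correction (0.0477) and the fits without WT replicate 3 (0.0297) or 4 (0.0418) called it higher. All 3 chains were higher in shTST than in overTST, with log2 differences of 0.38 for FGA, 0.51 for FGB and 0.50 for FGG (adjusted p = 1.6e-05, 1.5e-07 and 1.8e-07).

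The ratios between the chains differed from WT in both lines. Within each library the ratio of FGA to FGB was 5.24 to 5.46 in WT, 4.46 to 4.64 in shTST and 4.84 to 5.11 in overTST, and no 2 of these ranges overlapped (two-sided exact permutation test, p = 0.0286 for each pair, the smallest that 4 against 4 allow). The ratio of FGG to FGB was 3.54 to 3.75 in WT, 2.86 to 3.10 in shTST and 2.83 to 3.12 in overTST, and was lower than WT in both lines (two-sided exact permutation test, p = 0.0286 for each). Between shTST and overTST it did not differ beyond the spread of the libraries (exact permutation test, p = 0.83, mean ± SD 2.98 ± 0.102 and 2.99 ± 0.118, n = 4 each). With the length correction the overTST changes of FGA, FGB and FGG were −0.18, −0.16 and −0.39. Those of FGA and FGB were nearer to each other than without it, and those of FGG and FGB stayed apart. The ratios themselves carry no such correction. F13B, the carrier subunit of fibrin-stabilizing factor XIII, was barely expressed. In WT, F13B stood at 1.38, 0.791, 0.645 and 0.920 CPM, in shTST at 0.930, 0.837, 0.667 and 0.929 and in overTST at 0.448, 0.297, 0.474 and 0.864. Groups overlapped throughout, and its call as lower in overTST, with a log2 fold change of −0.85 (standard error 0.32, adjusted p = 0.0414), was lost in DESeq2 (adjusted p = 0.0567) and without WT replicate 1 or 4 or overTST replicate 1, 2 or 3 (adjusted p up to 0.178). F13B had 19 to 45 counts in WT and 7 to 19 in overTST. It passed the filter on low counts with the help of the WT libraries, where it was higher, so that no weight is put on its call.

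**Figure D4:**
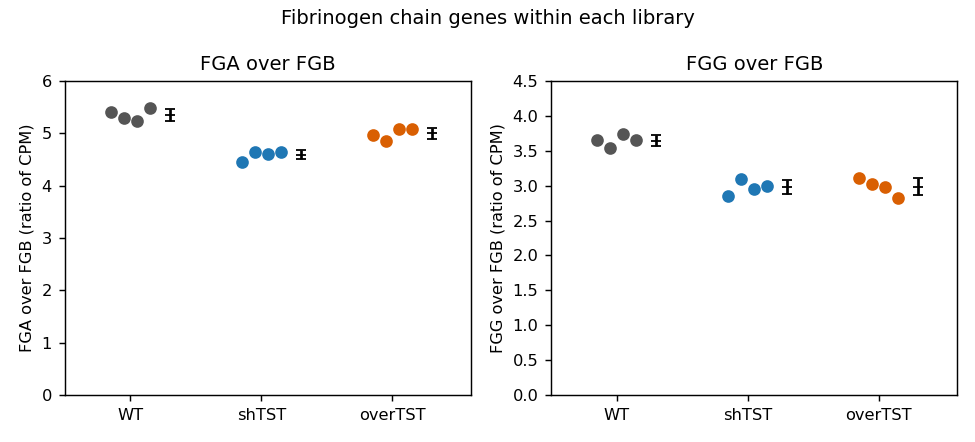
Ratio of the CPM of FGA to FGB (left) and of FGG to FGB (right) in each library, with the mean and SD of 4 libraries per group and axes from 0. Both ratios are highest in WT, FGA over FGB is lowest in shTST, and FGG over FGB lies at the same height in both TST lines.

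The sequences before the starts of FGA and FGB are shown because all 3 of the clustered fibrinogen genes were higher in shTST than in overTST. They are from RefSeq (GRCh38.p14), read 5′ to 3′ on the strand of the gene, and end where the first exon of the count files begins. Capitals mark the letters of the motifs searched on both strands, which were the HNF1 motif GTTAAT, the C/EBP motif TTGCNNAA and the STAT motif TTCNNNGAA. HNF1 and C/EBP are factors of hepatocyte genes, and STAT3 is the factor of the acute-phase response to interleukin-6.

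FGA chr4:154590767-154590992 (minus strand): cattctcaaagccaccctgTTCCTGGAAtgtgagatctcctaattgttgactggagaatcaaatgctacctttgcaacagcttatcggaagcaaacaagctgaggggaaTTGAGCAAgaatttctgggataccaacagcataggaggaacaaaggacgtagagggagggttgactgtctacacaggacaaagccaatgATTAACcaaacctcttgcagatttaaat
FGB chr4:154562730-154562955 (plus strand): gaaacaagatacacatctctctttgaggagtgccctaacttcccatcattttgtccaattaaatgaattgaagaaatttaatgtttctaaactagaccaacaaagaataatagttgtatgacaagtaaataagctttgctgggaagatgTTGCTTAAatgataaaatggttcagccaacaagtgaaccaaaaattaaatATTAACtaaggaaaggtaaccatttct

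Counted from the first base of each match to the RefSeq start, FGA held the HNF1 letters 52 bases, the C/EBP letters 141 bases and the STAT letters 231 bases upstream. FGB held the HNF1 letters 51 bases and the C/EBP letters 101 bases upstream, and no STAT letters. FGG held none of the 3 in its window, which lies within exons of the count files and is not printed. Of the 41 members, 32 had a promoter in the table, and the first entry of each gene was used. In the 250 bases before the start, 6 of 32 members held the HNF1 letters (6.22% of all 27305 promoters), 7 held the C/EBP letters (9.13%) and 10 held the STAT letters (6.78%). The 10 genes with STAT letters were FGA and CFB, called higher in shTST and lower in overTST, CPB2 and PROS1, called higher in shTST, MASP2 and F10, called higher in overTST, SERPINA5, called lower in overTST, and CD59, F9 and KLKB1, which were not called. The windows of CFB, PROS1, CPB2 and KLKB1 held 250, 170, 43 and 105 bases of exons of the count files, and their STAT letters lay there. The C/EBP letters of C1R and CPB2 and most of the HNF1 letters of F2 lay in exons too. These matches describe letters only, and binding was not measured.

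Prothrombin, factor VII, factor X and factor V carry the extrinsic and common routes to fibrin. F2 had 421, 428, 449.9 and 429.9 CPM in WT, 431, 412, 474 and 450.4 in shTST and 407, 456, 492 and 530.3 in overTST. The overTST libraries ranged from below to above WT. F2, which encodes prothrombin, was called in no comparison, with a log2 fold change of 0.12 (standard error 0.061, adjusted p = 0.118) in overTST. Without overTST replicate 1, its lowest library, F2 was called higher in overTST (adjusted p = 0.00678) and lower in shTST than in overTST (adjusted p = 0.0222). The 4 WT libraries held 90.8, 94.4, 78.9 and 86.2 CPM of F5, the shTST libraries 87.0, 87.4, 91.2 and 93.9 and the overTST libraries 63.1, 51.0, 62.2 and 64.6. All overTST libraries of F5 lay below the other 8. F5, the cofactor that speeds the activation of prothrombin, fell in overTST, with a log2 fold change of −0.54 (standard error 0.068, adjusted p = 2.2e-06), and the direct comparison gave a log2 fold change of 0.58 (standard error 0.063, adjusted p = 4.9e-07). In shTST its change was a log2 fold change of 0.036 (standard error 0.052, adjusted p = 0.689). For F10, WT gave 80.3, 69.2, 81.4 and 84.0 CPM, shTST 77.4, 78.2, 85.1 and 78.1 and overTST 82.6, 91.2, 91.2 and 100.5. The overTST group overlapped WT at its lower end. F10, whose active form cuts prothrombin, rose in overTST, with a log2 fold change of 0.22 (standard error 0.063, adjusted p = 0.0103), and this call was lost without overTST replicate 4 (adjusted p = 0.0572). F7, the partner of tissue factor, was called in no comparison, with means of 28.9 ± 1.02 CPM (SD, n = 4), 29.5 ± 2.87 CPM (SD, n = 4) and 28.7 ± 2.43 CPM (SD, n = 4) in WT, shTST and overTST.

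The contact and intrinsic route begins with F12, KLKB1 and KNG1 and runs through F11 and F9. In WT, KNG1 stood at 4.58, 3.82, 4.75 and 4.14 CPM, in shTST at 6.30, 5.96, 7.97 and 6.14 and in overTST at 8.96, 7.67, 5.53 and 7.91. WT stood below both lines, and shTST and overTST overlapped. KNG1, which encodes kininogen, the source of bradykinin, rose in shTST, with a log2 fold change of 0.62 (standard error 0.12, adjusted p = 0.00102), and in overTST, with a log2 fold change of 0.81 (standard error 0.13, adjusted p = 5.3e-05), and its exons are shared over 17.03% of their length with the antisense HRG-AS1. The 2 lines did not differ by a called amount in KNG1, with a log2 fold change of −0.18 (standard error 0.13, adjusted p = 0.282). F11 had 12.5, 13.9, 14.3 and 12.1 CPM in WT, 15.7, 12.8, 14.5 and 13.7 in shTST and 10.3, 9.36, 10.7 and 11 in overTST. No overTST library reached WT. F11 fell in overTST, with a log2 fold change of −0.35 (standard error 0.087, adjusted p = 0.00296), and differed between the lines by a log2 fold change of 0.45 (standard error 0.085, adjusted p = 2.3e-04). Its exons overlap the antisense F11-AS1 over 10.52% of their length, and the use of strand in counting was not given in the sources used here. F12, the contact factor XII, had means of 7.52 ± 0.393 CPM (SD, n = 4), 7.29 ± 0.902 CPM (SD, n = 4) and 7.72 ± 0.836 CPM (SD, n = 4) in WT, shTST and overTST, was called in no comparison, and shares 14.41% of its exonic length with the antisense GRK6. KLKB1, prekallikrein, had 6 to 23 counts a library and did not pass the filter on low counts in overTST against WT.

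Among the anticoagulants and the protein C inhibitor SERPINA5, called changes went both ways. The 4 WT libraries held 44.1, 42.4, 46.8 and 43.3 CPM of PROS1, the shTST libraries 53.6, 50.8, 49.0 and 53.2 and the overTST libraries 45.0, 38.1, 42.8 and 44.1. PROS1, protein S, the cofactor of activated protein C, had all shTST libraries above WT and rose there, with a log2 fold change of 0.23 (standard error 0.051, adjusted p = 0.00418). For SERPINA5, WT gave 390.2, 389, 398 and 383 CPM, shTST 398, 387, 395 and 407 and overTST 325, 328, 352 and 349.9. The overTST libraries of SERPINA5 were all below the other 8. SERPINA5, the protein C inhibitor, fell in overTST, with a log2 fold change of −0.20 (standard error 0.047, adjusted p = 0.00164), and differed between the lines by a log2 fold change of 0.23 (standard error 0.042, adjusted p = 2.0e-04). PROC, protein C, rose in overTST, with a log2 fold change of 0.19 (standard error 0.058, adjusted p = 0.0109), a call lost without overTST replicate 3 (adjusted p = 0.0538). TFPI, the inhibitor of tissue factor and factor VIIa, rose in overTST too, with a log2 fold change of 0.18 (standard error 0.053, adjusted p = 0.0104), and that call was also lost without overTST replicate 3 (adjusted p = 0.0638). SERPINC1, antithrombin, and SERPIND1, heparin cofactor II, were called in no comparison, with means in WT of 107 ± 8.06 CPM (SD, n = 4) and 243 ± 11.6 CPM (SD, n = 4). With the length correction, SERPIND1 was called higher in shTST than in overTST (adjusted p = 0.00337), and without overTST replicate 1 SERPINC1 was called lower in shTST than in overTST (adjusted p = 0.0142).

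The protease trap encoded by A2M also takes up thrombin and plasmin. In WT, A2M stood at 1360.2, 1249.8, 1357 and 1140.0 CPM, in shTST at 1614, 1260.2, 1616 and 1601 and in overTST at 881, 876, 1147 and 1284. The shTST library at 1260.2 and the overTST libraries at 1147 and 1284 lay within the WT range. A2M rose in shTST, with a log2 fold change of 0.26 (standard error 0.070, adjusted p = 0.0157), and fell in overTST, with a log2 fold change of −0.29 (standard error 0.089, adjusted p = 0.0150). DESeq2 called neither (adjusted p = 0.0540 and 0.136), and neither did limma-voom (0.123 and 0.164). The shTST call was lost without WT replicate 4 or shTST replicate 1 or 4 (adjusted p up to 0.0602) and in 1 fit of all 12 libraries (0.0654), and the overTST call without WT replicate 1 or overTST replicate 1 or 2 (adjusted p up to 0.0935). The direct comparison gave a log2 fold change of 0.54 (standard error 0.093, adjusted p = 1.0e-04). The exons of A2M overlap those of the antisense A2M-AS1 over 6.22% of their length.

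Of the genes of fibrinolysis, SERPINF2, the plasmin inhibitor, had 394 to 463 CPM in WT, 404 to 501 in shTST and 393 to 508 in overTST and was called in no comparison. Without WT replicate 3, its highest WT library, SERPINF2 was called higher in shTST (adjusted p = 0.0413) and in overTST (0.0380), as it was in shTST without shTST replicate 2 (0.0495) and in overTST without overTST replicate 1 (0.0123). CPB2 had 51.9, 41.8, 48.9 and 46.8 CPM in WT, 59.8, 58.2, 55.8 and 52.8 in shTST and 48.3, 44.8, 42.7 and 48.0 in overTST. CPB2, whose product trims fibrin so that plasmin binds it less, had all shTST libraries above WT and rose there, with a log2 fold change of 0.26 (standard error 0.060, adjusted p = 0.00507), and in overTST it had a log2 fold change of −0.041 (standard error 0.066, adjusted p = 0.669). PLG, the precursor of plasmin, had 4 to 18 counts a library, and was called in no comparison.

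**Figure D5:**
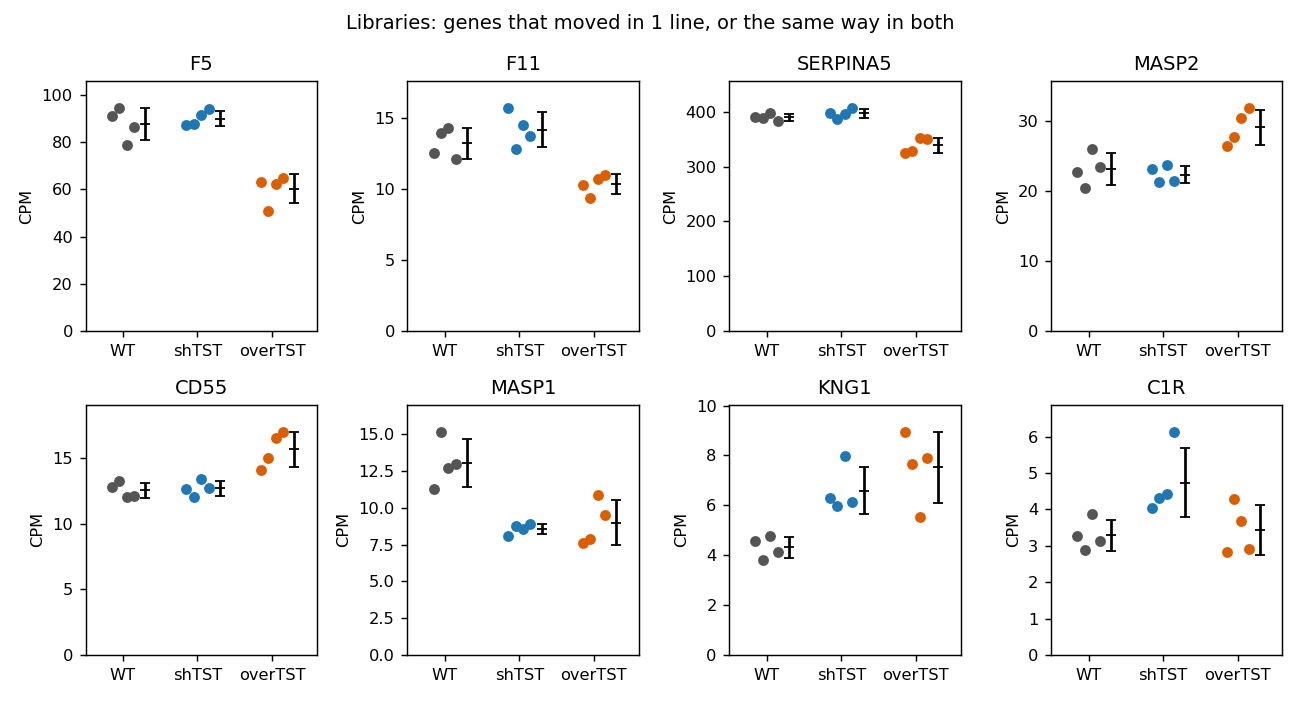
CPM in every library for 8 further genes, with the mean and SD of the 4 libraries of each group beside the points and axes from 0. F5, F11 and SERPINA5 have all overTST libraries below WT, MASP2 and CD55 have all overTST libraries above it, MASP1 is below WT and KNG1 above WT in both lines, and C1R has its highest library in shTST.

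Side by side, the 2 comparisons with WT, which share the WT libraries, sorted the 38 tested members as follows. Called higher in shTST, lower in overTST and different between the lines were C5, CFB, SERPING1, A2M and FGA. Called higher in shTST only were C1R, C1S, CFI, CPB2, FGB and PROS1, and lower in overTST only C3, C4A, C4B, CD46, F5, F11, FGG, SERPINA5 and F13B, with no weight put on F13B. Called higher in overTST only were C8G, CD55, MASP2, F10, PROC and TFPI. MASP1 was lower and KNG1 higher in both. The direct test of the lines called all of these except MASP1, KNG1, C1S, CFI and F13B. Of its calls, C1R was lost without shTST replicate 4 (adjusted p = 0.125) or overTST replicate 1 (0.0679) or 4 (0.0709), and F10 without overTST replicate 4 (0.0777). The length correction lost its calls of C4B (0.0850), CD46 (0.135), F10 (0.204) and PROC (0.0784). C3 and FGG were also called higher in shTST by several of the alternative fits given above. C8A, CD59, F2, F7, F12, PLG, SERPINC1, SERPIND1, SERPINF2 and KLKB1 were called in no comparison.

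Other genes of both systems were read from 2 further lists. Of 35 further complement genes, 13 were tested in shTST and 14 in overTST. Among all genes tested, 6.69% were called higher and 9.40% lower in shTST, and 15.7% and 18.2% in overTST. C4BPA, the chain of the C4b-binding protein, rose in shTST, with a log2 fold change of 0.33 (standard error 0.079, adjusted p = 0.00678), and edgeR called no other of the 13, while DESeq2 called 2 higher. C4BPB, the other chain of that protein, rose in overTST, with a log2 fold change of 0.25 (standard error 0.059, adjusted p = 0.00201). C5AR1, the receptor of C5a, was called higher there as well, at 9 to 17 counts in WT and 11 to 36 in overTST. It was not tested in shTST and passed the filter on low counts through the overTST libraries, where it was high, so that no weight is put on its call. No gene of this list was called lower against WT by edgeR, DESeq2 or limma-voom (0 each), and at an unadjusted p below 0.05 edgeR gave 0 lower in shTST and 1 (MBL2) in overTST. C2, the partner of C4 in the classical convertase, had 123 ± 9.34 CPM (SD, n = 4), 128 ± 5.90 CPM (SD, n = 4) and 126 ± 11.9 CPM (SD, n = 4) in WT, shTST and overTST and was not called. Factor H and its relatives were at or near 0.

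Of 32 further clotting genes, 25 were tested in shTST, where 1 rose and 5 fell. Among all genes tested there, 6.69% were called higher and 9.40% lower. FGL1, a fibrinogen-like protein, rose, with a log2 fold change of 0.34 (standard error 0.051, adjusted p = 1.4e-04). PLAU, urokinase, fell, with a log2 fold change of −0.58 (standard error 0.19, adjusted p = 0.0414). TFPI2, a relative of TFPI, was called lower at 16 to 30 counts in WT and 3 to 10 in shTST, and passed the filter through the WT libraries, where it was high, so that no weight is put on its call. In overTST, 24 were tested, and 5 rose and 6 fell, beside 15.7% called higher and 18.2% lower among all tested genes. These were 20.8% and 25.0% of the 24. Among genes with a mean of 10 CPM or more, 21.2% were called higher and 25.0% lower. S100A10 and ANXA2, which together bind plasminogen at the cell surface, rose, with log2 fold changes of 0.41 and 0.26 (adjusted p = 2.2e-05 and 2.3e-04), and FGL1 by a log2 fold change of 0.23 (standard error 0.053, adjusted p = 0.00143). MCFD2, which helps to carry factors V and VIII out of the endoplasmic reticulum, fell, with a log2 fold change of −0.42 (standard error 0.051, adjusted p = 1.3e-06). LMAN1, its partner, chosen after its value was seen, fell, with a log2 fold change of −0.35 (standard error 0.050, adjusted p = 1.1e-05). F2R, a thrombin receptor, and SERPINE2 fell, with log2 fold changes of −0.38 and −0.37 (adjusted p = 0.00220 and 2.0e-04).

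Some markers of the cells' own lineage differed from WT as well. Of 10 hepatocyte markers, 3 rose (ALB, AFP and TF) and 3 fell (APOB, TTR and AHSG) in shTST, and 3 rose (APOA1, TTR and RBP4) and 2 fell (APOB and HNF4A) in overTST. Among all genes with a mean of 10 CPM or more, 8.84% rose and 13.8% fell in shTST, and 21.2% and 25.0% in overTST. The summed CPM of the 10 markers was 21533 to 23966 in WT, 22427 to 26629 in shTST and 19479.7 to 24209 in overTST, so that the ranges overlapped. The part of the hepatocyte genes in the changes of the members was not tested.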

How the data were processed

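The authors deposited, for each of the 12 libraries, whole-number read counts per gene on 57500 Ensembl genes, not normalized, with exon positions and exonic lengths. The submitters' processing notes name Trimmomatic 0.36, STAR 2.5.2b, featureCounts of Subread 1.5.2 and GRCh38. The counting options, the use of strand and the annotation release were not given in the sources used here. Gene names were taken from a name table, which matched 56410 of the identifiers. Genes with low counts were removed by filterByExpr (default settings), TMM set the scaling, and the quasi-likelihood test of edgeR (glmQLFit, then glmQLFTest) was adjusted by Benjamini-Hochberg across the genes that remained, with calls at 0.05. Each comparison with WT used its own 8 libraries, and shTST against overTST used 1 fit of all 12. A standard error is the size of the log2 fold change over the root of F. CPM used TMM-scaled library sizes of all 12 libraries, and RPKM divided CPM by exonic length. The biological coefficient of variation was 5.85% for shTST, 6.41% for overTST and 6.02% for the fit of 12 libraries.

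Sample labels gave the groups and replicate numbers, and the methods gave the glycine dose and the time. The general statistics of the study define replicates as experiments on different days, but neither the labels nor the RNA-seq methods say so of these libraries, and if they are not, the p-values measure only the spread between these libraries, which may be technical. Counts of replicate libraries differed by more than sampling noise (chi-square per gene of 3.68 to 38.3 over 18 pairs within groups). Depths of 22911380 to 45120508 counts set the counting error, and values of genes with few counts are the least precise. Intervals and floors cover counting error only. The members and all lists were chosen with earlier results of these data known.

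Every library's value is given for C3, A2M, FGA, FGB, FGG and F2 and for the called members among the 8 of their set with the largest absolute log2 fold change against WT. From the further lists, up to 3 higher and 3 lower called genes with the largest change are named. One result of these lists is not reported here. The alternatives were DESeq2 1.42.0, limma-voom (limma 3.58.1) with robust moderation, upper-quartile and RLE scaling, testing without a filter or above 1 CPM in 4 libraries, a fit of other libraries, a lowess length correction (span 0.3), the replicate number as a block, C4A and C4B summed, leaving out each library and, chosen after seeing the data, leaving out WT replicates 2 and 4 together. Fits ran in R 4.3.3 (edgeR 4.0.16), and tables and plots in Python 3.11.15 (matplotlib 3.10.9). The test scripts were tested on simulated data.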

Additional observations from a re-analysis of the deposited data

Results flagged for a closer look

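In 4 of 105 groups of 4 libraries examined, all of members with a mean of 1 CPM or more, 1 library stood apart from the other 3 by Dixon's 95% criterion on the gap over the range. Chance flags about 1 in 20 groups. A2M in shTST replicate 2 had 1260.2 CPM, below the 1601 to 1616 of the other shTST libraries. KNG1 in shTST replicate 3 had 7.97 CPM, above 5.96 to 6.30, and F10 in the same library had 85.1 CPM, above 77.4 to 78.2. SERPINF2 in WT replicate 3 had 463 CPM, above 394 to 406, and without it SERPINF2 was called higher in shTST (edgeR adjusted p = 0.0413) and in overTST (0.0380). KNG1 was called higher in shTST in every fit that left out 1 library (edgeR adjusted p up to 0.00648), and without shTST replicate 2 no call of A2M was lost.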

How the results depend on the processing

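Of 2417 alternative values of single members and list medians, 2269 kept their side of the threshold or, for medians, moved less than the spread. Members called in neither fit count among these even where their direction changed. No value of a single member changed direction where either fit called it, and counts and medians were not checked for direction. With the length correction, called complement genes in overTST fell from 8 to 5 lower, clotting genes from 4 to 2 higher, and clotting genes lower in shTST than in overTST from 3 to 1. The replicate block with the length correction gave the same 5 and 2 in overTST. Leaving out WT replicates 2 and 4 together, chosen after seeing the data, gave 0 complement and 3 clotting genes higher in shTST, 1 clotting gene higher in overTST, and 411 higher and 514 lower of all genes in shTST and 1390 and 1698 in overTST. Fewer WT libraries enter that fit, and the cause was otherwise not tested. Same-numbered libraries did not deviate together (correlation −0.0527 to 0.0801 over 12 pairs, 5 of 12 correlating best with their own number), so the numbers were not read as pairs. With the replicate block, clotting genes called higher in shTST numbered 9 in place of 6.

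Leaving out 1 library at a time, all genes called in shTST numbered 644 to 1021 higher and 869 to 1375 lower, both lowest without shTST replicate 1. Complement genes called higher in shTST numbered 3 to 6 (3 without shTST replicate 4). In overTST, clotting genes called lower numbered 4 to 7 (4 without WT replicate 1 or overTST replicate 2) and higher 2 to 6 (2 without overTST replicate 3, 6 without overTST replicate 1). Clotting genes called lower in shTST than in overTST numbered 2 to 5 (5 without overTST replicate 1). Low counts limit F13B, PLG, KLKB1, C6 and F9, and the exon overlaps of CFB, KNG1, F11, F12, C1R and C4A limit their levels.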
